A study of Homo sapiens with 8 samples.

Results

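The MYC locus was taken as the stretch of chromosome 8 that reaches 1 Mb to either side of the MYC transcription start site at position 128748315 (hg19). Peaks were chosen by position: a peak of any of 5 deposited lists belonged to the locus when its centre fell in that stretch. This gave 94 peaks of 51828 in all, made up of 1 of 847 HA-YAP5SA peaks, 0 of 454 YAP peaks, 0 of 153 TAZ peaks, 64 of 38186 TEAD1 peaks and 29 of 12188 TEAD4 peaks. A peak with its centre within 1 kb of the start site was counted at the promoter, and all others were counted as distal. The lists came from ChIP-seq, the sequencing of DNA recovered with an immunoprecipitated protein, in HuCCT1, an established cell line from a human bile duct cancer. Chromatin was precipitated for HA-tagged YAP5SA, YAP, TAZ, TEAD1 or TEAD4, and GFP, IgG and input libraries, not analysed here, served as background in the design. YAP5SA is a mutant YAP in which serines phosphorylated by the LATS kinases are replaced, and it was recovered through its tag. The GFP library was the background for that tag procedure. The other antibodies are labelled with their protein alone, and the labels do not say whether those cells also carried the tagged form. No treatment or time is labelled for any library.

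MYC encodes a transcription factor that drives genes of growth, ribosome production and the cell cycle. Its gene stands in a large region with few protein-coding genes, and enhancers far from the promoter on both sides are known to act on it in various cancers. TEAD1 and TEAD4 are DNA-binding factors of the Hippo pathway. YAP and its paralogue TAZ lack a DNA-binding domain and are recruited to chromatin largely by TEADs, often at distal enhancers. In the GRCh38 gene table, the nearest upstream neighbour of MYC is the long noncoding RNA gene CASC11, and POU5F1B is the nearest protein-coding gene listed on that side. The nearest downstream neighbour is PVT1, a long noncoding RNA gene. That table was used for gene order alone, so no peak was placed inside a gene other than at the MYC start site. MYC is transcribed toward higher coordinates, so upstream below means lower positions.

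Each antibody had 1 library, so no value has a replicate error and no difference between lists was tested. The read depth behind the lists is unknown. The peak score is the authors' value on a scale that is not stated, and it was ranked and compared only inside its own list. Intervals are exact Clopper-Pearson intervals at 95%. A share of 0 is given instead with the limit that 3 peaks would set. Both cover counting error over peaks, and neighbouring peaks of a library are not independent. Peak lists hold no expression values, so the HuCCT1 label could not be checked against marker genes. MYC was singled out with its TEAD4 promoter peak already known, so that peak and its score are given as a description.

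At the MYC promoter a single peak was listed, and it belonged to TEAD4. It ran from 128747932 to 128748641 on chromosome 8, a width of 710 bp, and its score was 3100. The peak began 383 bp upstream of the start site and ended 326 bp past it, so that its centre lay 28.5 bp from the start. This peak covered the start site, whereas TEAD1, HA-YAP5SA, YAP and TAZ had no peak within 1 kb. Its signal was not compared with the GFP, IgG or input libraries, which were not analysed here. The nearest TEAD1 centre lay 5.82 kb from the centre of the TEAD4 peak. The nearest HA-YAP5SA centre lay 579 kb away, and the nearest YAP centre 5797 kb away. The nearest TAZ centre was 41908 kb away, on the upstream side, and no TAZ peak was listed on chromosome 8 downstream of MYC.

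**Figure D1:**
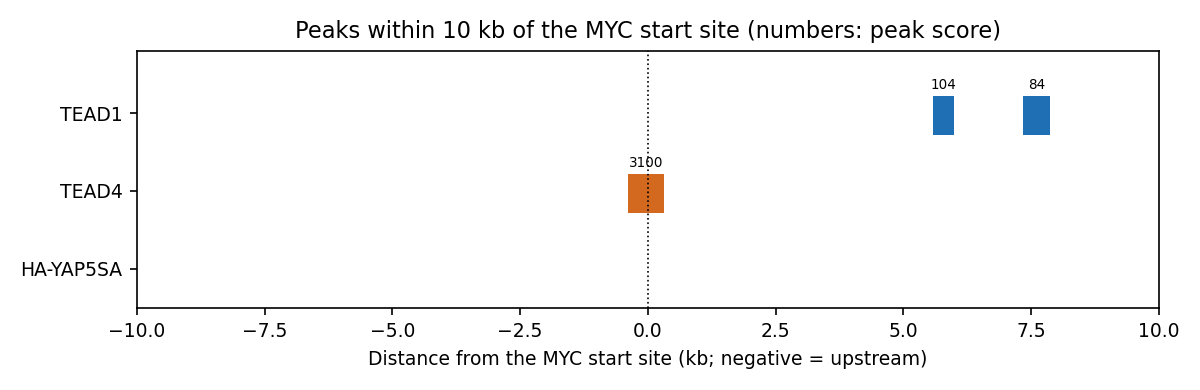
Peaks within 10 kb of the MYC start site (dotted line), drawn to scale by distance in kb, 1 row per list; the number above each box is its score, and the YAP and TAZ lists, not drawn, had no peak here. The TEAD4 peak with a score of 3100 covers the start site, and both TEAD1 peaks in view lie downstream of it.

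In the TEAD4 list the promoter peak shared the highest score with 4 others. These 5 peaks stood at 3100, and the next TEAD4 score was 2954. The highest YAP score was also 3100 and the highest TEAD1 score was 3147. Whether 3100 is a ceiling of the TEAD4 score is not stated, so the order among the 5 and their distance from lower scores may not be to scale. The 5 peaks were 710 to 2265 bp wide, and the MYC promoter peak was the narrowest. Of the 5, 4 overlapped TEAD1, 3 overlapped HA-YAP5SA and 2 overlapped YAP, while the MYC promoter peak overlapped none of these. A TEAD4 peak without TEAD1 was uncommon in the list as a whole: 353 of 12188 TEAD4 peaks lacked it. Those 353 peaks had a median score of 95.6. The MYC promoter peak headed them, and the second of them, on chromosome 11 (101981457 to 101981984), scored 484. Next came a peak on chromosome Y (58819352 to 58870525), with a score of 451, a width of 51174 bp and an overlap with YAP. Ranks 4 and 6 among the 353, on chromosomes 17 and 16, overlapped no YAP, HA-YAP5SA or TAZ peak. Ranks 5, 8 and 9 were again on chromosome 11, between 101984854 and 102100745, and rank 5 overlapped HA-YAP5SA. Rank 7, on chromosome 21, overlapped YAP, HA-YAP5SA and TAZ. Rank 10, on chromosome 1, was 7848 bp wide and overlapped YAP. Whether these peaks mark TEAD4 binding was not tested. Among the 1219 TEAD4 peaks in the top 10% of scores, 2 lacked TEAD1, and the MYC promoter was 1 of them. On chromosome 8, 19 TEAD4 peaks lacked TEAD1, and the highest score among them after the MYC promoter was 113.

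**Figure D2:**
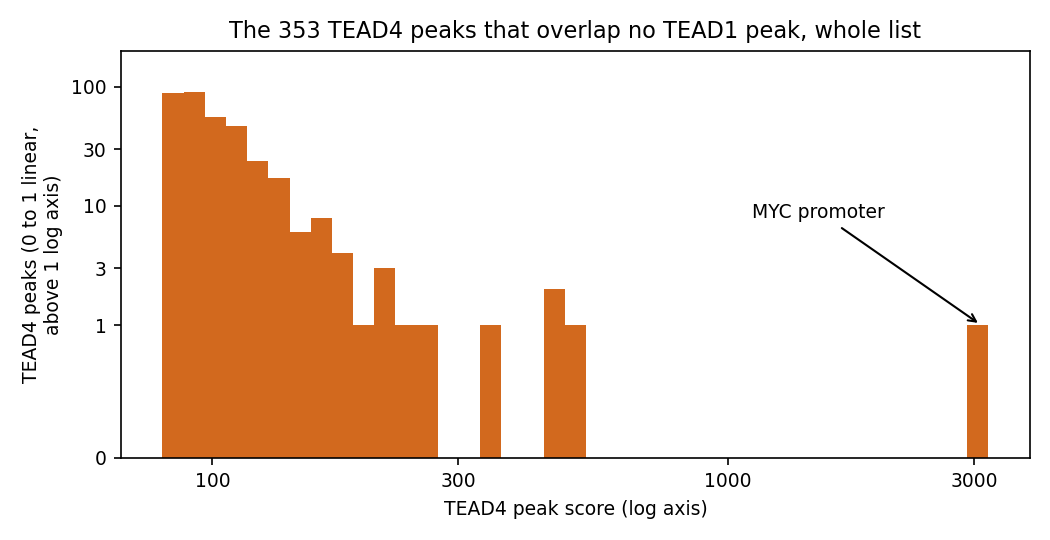
Number of TEAD4 peaks by score (log axis) among the 353 that overlap no TEAD1 peak; the count axis is linear up to 1 and logarithmic above. The MYC promoter peak, at 3100, which may be a ceiling of the score, stands apart from the next score of 484.

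Near the promoter, TEAD1 peaks lay on the downstream side. The first TEAD1 peak downstream of the start site was 5.79 kb away (128753889 to 128754317, score 104), and a second lay 7.60 kb away (128755649 to 128756189, score 84.3). Both scores were low for the list, at the 19.4th percentile in the case of the first. Upstream, the first TEAD1 peak was 113 kb away (128635378 to 128635723) and scored 86.4. The first distal TEAD4 peaks lay 345 kb upstream (128403662 to 128403886, score 82.0) and 66.2 kb downstream (128814362 to 128814668, score 111). No TEAD1 peak and no distal TEAD4 peak had its centre within 100 kb upstream of the start site, while 8 TEAD1 peaks and 5 TEAD4 peaks did within 100 kb downstream. The distance of 119 kb between the TEAD1 centres on either side of the start site held the TEAD4 promoter peak and no other TEAD4 peak. A distance of this length was common in the list: 15.9% of the distances between neighbouring TEAD1 centres on chromosomes 1 to 22 and X were as long or longer. Longer distances in the locus measured 165 kb, 152 kb and 125 kb.

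The distal part of the locus was dense in TEAD peaks. The 64 TEAD1 peaks over 2 Mb compare with a median of 24 (interquartile range 12 to 37) in fixed 2 Mb bins along chromosomes 1 to 22 and X. Of these 1487 bins, 33 (2.22%) held as many TEAD1 peaks or more. On chromosome 8, 1 of 74 bins did. The 29 TEAD4 peaks compare with a median of 6 per bin (2 to 12), and 2.08% of bins held as many or more. No bin of chromosome 8 did, the highest being 28. For HA-YAP5SA the median was 0 per bin, and 35.8% of bins held at least 1, so 1 peak is not a rare number. The bins start at fixed positions, whereas the MYC window was centred on a gene picked with results of these lists known, so these shares are a description and not independent evidence.

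**Figure D3:**
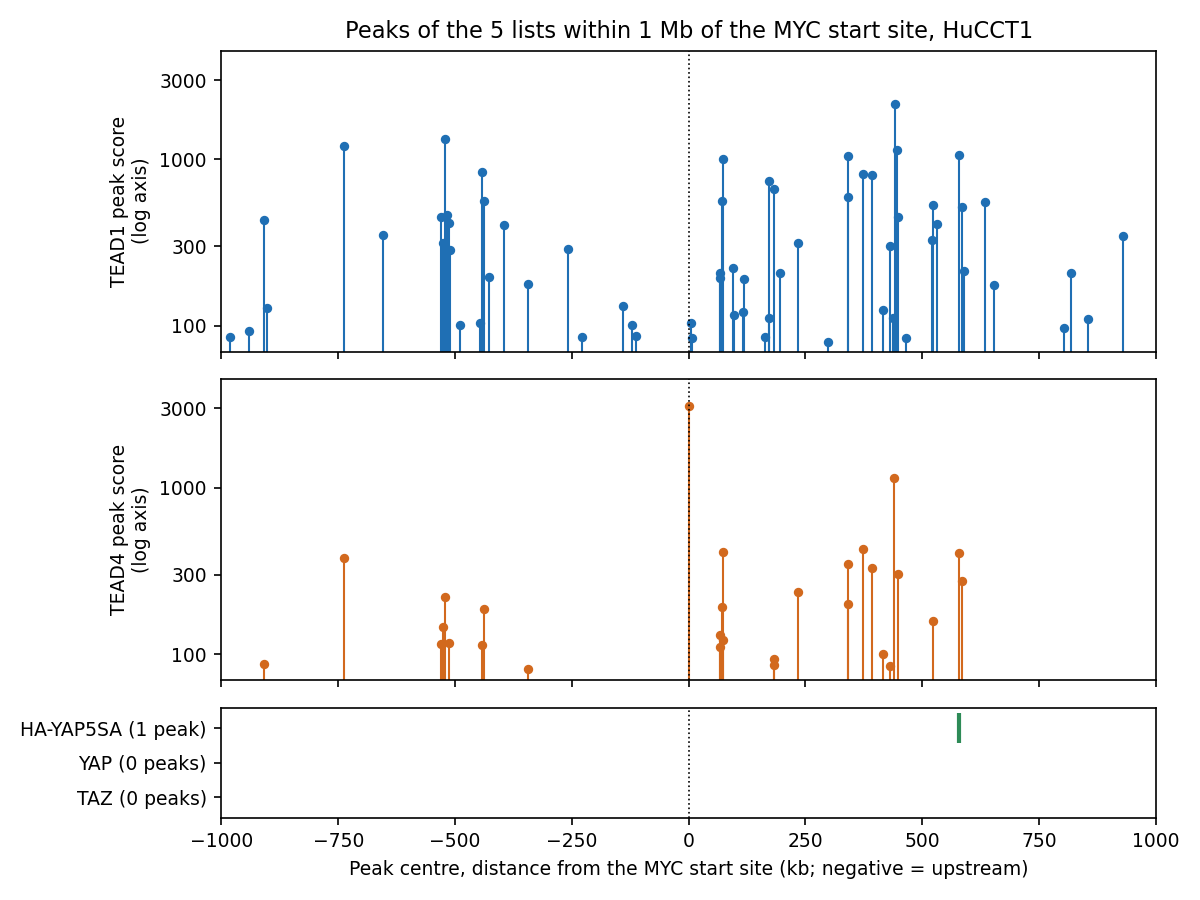
Score (log axis) of each TEAD1 and TEAD4 peak against the distance of its centre from the MYC start site in kb, with the positions of HA-YAP5SA, YAP and TAZ peaks below; each stem is 1 peak. The TEAD4 panel is highest at the start site, where the TEAD1 panel has no peak, and the highest TEAD1 stem lies 441 kb downstream.

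More of the TEAD peaks lay downstream of MYC than upstream. Of the 64 TEAD1 peaks, 40 were downstream and 24 upstream. Of the 28 distal TEAD4 peaks, 19 were downstream and 9 upstream, since the upstream total of 10 counts the promoter peak. The median TEAD1 score was 263 downstream and 288 upstream, so the sides differed in number more than in median score. Within 250 kb downstream there were 16 TEAD1 peaks with a median score of 201, and within 250 kb upstream there were 4 with a median of 93.8. From 250 to 500 kb, the counts were 12 downstream (median 523) and 8 upstream (median 242). From 500 to 750 kb they were 8 downstream (median 463) and 8 upstream (median 434). In the outermost 250 kb each side held 4 TEAD1 peaks, with medians of 159 downstream and 110 upstream. TEAD4 had 8 distal peaks within 250 kb downstream and 0 within 250 kb upstream.

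The 10 highest TEAD1 peaks of the locus were distal, as were all its TEAD1 peaks. All 10 stood in the top 10% of the TEAD1 list and overlapped TEAD4, as did 97.0% of the list's peaks in that range. The first lay 441 kb downstream (129188656 to 129189682), scored 2154 and ranked 96 in the TEAD1 list. The TEAD4 peak under it (129188760 to 129189298) scored 1139, ranked 103 in the TEAD4 list and was the highest distal TEAD4 peak near MYC. This site stood at the 99.8th percentile of TEAD1 scores and the 99.2nd of TEAD4 scores. The second TEAD1 peak lay 521 kb upstream (128227286 to 128227967, score 1325), over a TEAD4 peak that scored 222. Next in score was a peak 737 kb upstream (128010800 to 128011403, score 1206), over a TEAD4 peak that scored 380.

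The next TEAD1 peaks in order of score were downstream in all but 1 case. A peak 447 kb downstream (129194876 to 129196042) scored 1133, and its TEAD4 peak scored 303. A peak 579 kb downstream (129326560 to 129327390) scored 1062, with a TEAD4 score of 405. These were followed by a peak 342 kb downstream (129089653 to 129090393) with a TEAD1 score of 1055 and a TEAD4 score of 350. The peak closest to MYC among the leading 10 lay 73.8 kb downstream (128821422 to 128822886). It scored 1001, was the widest TEAD1 peak of the locus at 1465 bp, and spanned TEAD4 peaks that scored 121 and 409. The remaining 3 lay 441 kb upstream (128306812 to 128307589, TEAD1 score 843, TEAD4 score 114), 373 kb downstream (129120999 to 129121613, TEAD1 score 818, TEAD4 score 429) and 392 kb downstream (129139781 to 129140546, TEAD1 score 803, TEAD4 score 331). Of the 10, 8 overlapped a TEAD4 peak that was itself among the leading 10 TEAD4 peaks near MYC. Apart from the promoter peak, the leading 10 TEAD4 peaks held 1 that overlapped no leading TEAD1 peak, 585 kb downstream (129333579 to 129333846, TEAD4 score 275). Its TEAD1 peak scored 517.

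The median TEAD1 score near MYC lay above that of the list as a whole, while the TEAD4 medians were closer. For TEAD1 the median was 288 in the locus, with quartiles at 115 and 539, against 177 in the whole list, with quartiles at 113 and 333. Of the 64, 42 (65.6%, interval 52.7 to 77.1%) stood at or above the median score of the list. In the top 10% of scores there were 12 (18.8%, interval 10.1 to 30.5%), against 10.0% of the list, a share just under the lower end of that interval. The lowest TEAD1 score in the locus was 80.4, close to the start of the list. For TEAD4 the median was 186 in the locus, with quartiles at 114 and 331, against 162 in the whole list, with quartiles at 110 and 271. Of the 29, 15 (51.7%, interval 32.5 to 70.6%) stood at or above the median of the list. Only the promoter peak and the site 441 kb downstream were in the top 10% of TEAD4 scores, 6.90% of the locus against 10.0% of the list. The median TEAD1 peak was 606 bp wide near MYC and 552 bp wide in the list, and the median TEAD4 peak was 317 bp wide near MYC and 352 bp wide in the list.

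TEAD1 peaks near MYC stood close together. The median distance between neighbouring TEAD1 centres was 17.4 kb (interquartile range 4.59 to 42.1 kb), against 27.8 kb (8.26 to 76.6 kb) along chromosomes 1 to 22 and X. Of the 64 peaks, 39 (60.9%, interval 47.9 to 72.9%) had another TEAD1 centre within 10 kb, against 46.3% of the list. Runs in which each centre lay within 10 kb of the next numbered 7 with at least 3 peaks. They held 27 TEAD1 peaks, 42.2% of the locus, against 22.3% of the list in such runs. A further 6 pairs and 25 single peaks made up the rest. For TEAD4, 20 of 29 peaks (69.0%, interval 49.2 to 84.7%) had another TEAD4 centre within 10 kb, against 28.8% of the list. The list shares were not matched for peak density, so close spacing is not separate from the density of the locus given above.

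The longest run had 6 TEAD1 peaks and lay 511 to 530 kb upstream of MYC (128218304 to 128237828). Its TEAD1 scores were 453, 313, 1325, 465, 415 and 287 in order of position. TEAD4 was present at 4 of these 6 peaks, with scores of 115, 146, 222 and 117. All 6 TEAD1 scores were above their list's median of 177. Of the TEAD4 scores, only 222 was above its list's median of 162. Other pairs near MYC also stood lower in the TEAD4 list than in the TEAD1 list, so this was not particular to the run. A run of 5 lay 432 to 448 kb downstream (129179670 to 129197182). Its TEAD1 scores were 303, 112, 2154, 1133 and 453, and TEAD4 was present at the peaks that scored 303, 2154 and 1133. It held the highest distal peak of both TEADs near MYC. A run of 4 lay 66.2 to 73.8 kb downstream (128814316 to 128822886), with TEAD1 scores of 208, 194, 562 and 1001. All 4 carried TEAD4, in 5 peaks that scored 111, 131, 193, 121 and 409, and it was the run nearest to the promoter.

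**Figure D4:**
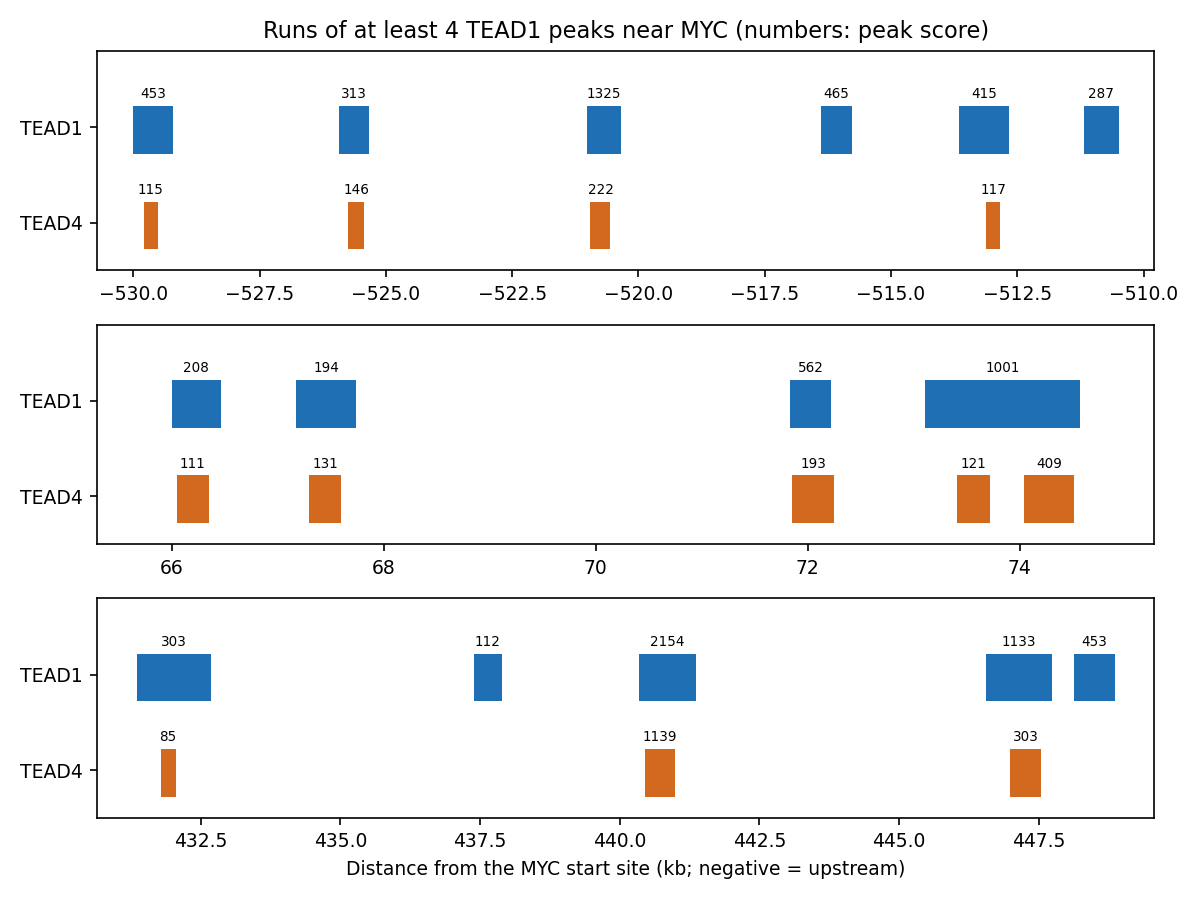
The 3 runs with at least 4 TEAD1 peaks, drawn to scale by distance from the MYC start site in kb, with TEAD1 peaks above TEAD4 peaks and scores as numbers. TEAD4 peaks lie inside or across TEAD1 peaks, and 4 TEAD1 peaks of the 2 longer runs have none under them.

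The other 4 runs had 3 TEAD1 peaks each. Of these, 1 lay 438 to 446 kb upstream (128302141 to 128310410), with TEAD4 at 2 of 3 peaks and a highest TEAD1 score of 843. Another lay 164 to 172 kb downstream (128911696 to 128920586) and had no TEAD4 peak, although its highest TEAD1 score was 741. A further run lay 521 to 531 kb downstream (129269228 to 129280104), with TEAD4 at 1 of 3 peaks and TEAD1 scores of 329 to 534. The last lay 579 to 589 kb downstream (129326560 to 129337104), with TEAD4 at 2 of 3 peaks, and held the HA-YAP5SA peak.

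Away from the promoter, every TEAD4 peak lay on TEAD1. All 28 distal TEAD4 peaks overlapped a TEAD1 peak. With the promoter peak included, 28 of 29 did (96.6%, interval 82.2 to 99.9%), against 97.1% of the TEAD4 list. In the other direction 26 of 64 TEAD1 peaks (40.6%, interval 28.5 to 53.6%) overlapped TEAD4, against 30.6% of the TEAD1 list, which lies inside the interval. When TEAD1 peaks were divided at the list's median score, the locus was close to the list on each side. In the upper part 25 of 42 TEAD1 peaks (59.5%, interval 43.3 to 74.4%) overlapped TEAD4, against 55.1% of the list. In the lower part 1 of 22 did (4.55%, interval 0.115 to 22.8%), against 5.98%. Merging overlapping peaks gave 65 sites, of which 38 carried TEAD1 alone, 25 TEAD1 with TEAD4, 1 TEAD1 with TEAD4 and HA-YAP5SA, and 1, the promoter, TEAD4 alone.

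TEAD1 peaks that carried TEAD4 scored higher as a group: their median was 561, with quartiles at 341 and 961, and that of the 38 lacking TEAD4 was 129, with quartiles at 101 and 289. In the whole list these medians were 452 with TEAD4 and 136 without. The split is not clean, because TEAD1 peaks without TEAD4 reached 741, at the peak 172 kb downstream (128920026 to 128920586). That was the single TEAD1 peak near MYC in the top 10% of scores that lacked TEAD4, the other 11 of 12 carrying it (91.7%, interval 61.5 to 99.8%, against 97.0% of the list). The next highest TEAD1 peak without TEAD4 lay 634 kb downstream (129381997 to 129382653) and scored 556. The lowest TEAD1 peak with TEAD4 scored 125, 417 kb downstream (129165121 to 129165720).

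Where both TEADs were listed their centres nearly coincided. The 28 overlapping pairs involved 26 TEAD1 peaks, and the median distance between paired centres was 51.8 bp (interquartile range 31.4 to 88.9 bp), against 44.0 bp (20.5 to 80 bp) over the whole lists. The TEAD4 peak was the narrower of the pair in 27 of 28. No count over all pairs of the whole lists is given for comparison. TEAD4 peaks were also the narrower ones in the whole lists, where median widths were 352 bp (TEAD4) and 552 bp (TEAD1). The narrower TEAD4 peak is therefore not shown to be particular to MYC. The farthest pair, 496 bp apart, was at a 1391 bp wide TEAD1 peak 183 kb downstream (128930357 to 128931747) that spanned 2 TEAD4 peaks with scores of 93.6 and 86.0. Pairs with a higher TEAD1 score tended to have a higher TEAD4 score, with Spearman's rho 0.67 over 28 pairs, against 0.71 over 11841 pairs of the whole lists. This is a description, since the pairs come from the same 2 libraries and some share a TEAD1 peak. Some pairs departed from it: 908 kb upstream a TEAD1 score of 433 stood over a TEAD4 score of 87.9, and 183 kb downstream a TEAD1 score of 660 stood over TEAD4 scores of 93.6 and 86.0.

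**Figure D5:**
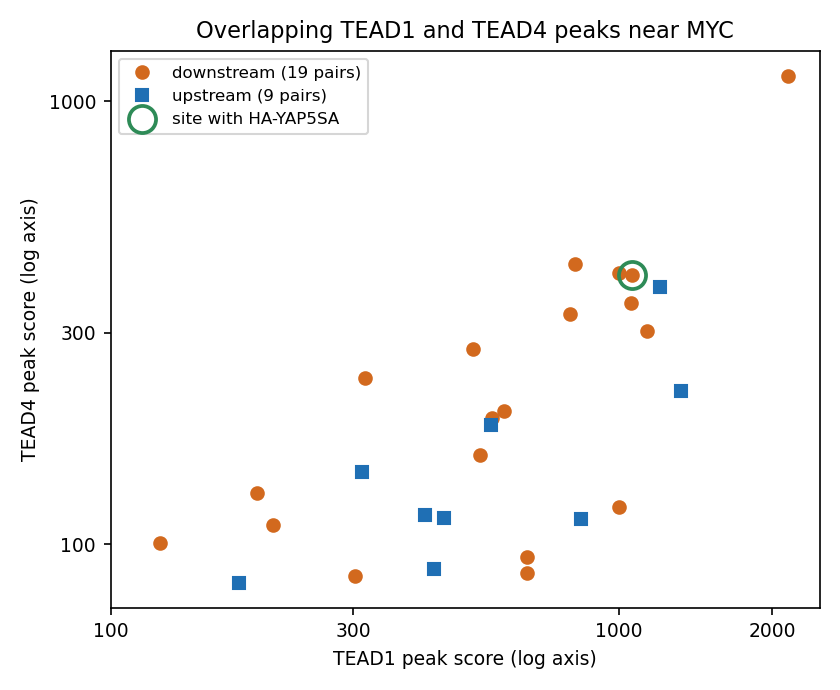
TEAD4 score against TEAD1 score (log axes) for the 28 overlapping pairs near MYC, with downstream pairs as circles and upstream pairs as squares; the ring marks the site with HA-YAP5SA. The promoter peak is absent because it has no TEAD1 partner, and the ringed site, at 1062 and 405, is not the highest of the pairs.

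HA-YAP5SA had 1 peak near MYC, and it lay on a distal TEAD site. The peak lay 579 kb downstream (129326817 to 129327059), was 243 bp wide and scored 140, rank 302 in its list and above its list's median of 114. It lay inside the TEAD1 peak described above with a score of 1062 (129326560 to 129327390) and inside a TEAD4 peak with a score of 405 (129326721 to 129327250). Its centre was 37 bp from the TEAD1 centre and 47.5 bp from the TEAD4 centre. Overlap with both TEADs was the rule for this list, at 781 of 847 HA-YAP5SA peaks (92.2%). The site was not the strongest TEAD site of the locus. TEAD1 scores as high or higher were found at 5 peaks near MYC, of which 4 lacked HA-YAP5SA, including the site 441 kb downstream. At such TEAD1 scores 36.7% of the list overlapped HA-YAP5SA, against 1 of 5 near MYC (20.0%). The score limit was that of the peak carrying HA-YAP5SA, so this 1 was fixed in advance and no interval is given. Over all scores, 1 of 64 TEAD1 peaks overlapped it (1.56%, interval 0.0396 to 8.40%), against 2.06% of the list. For TEAD4 peaks it was 1 of 29 (3.45%, interval 0.0873 to 17.8%), against 6.28%. In the top 10% of TEAD1 scores it was 1 of 12 (8.33%, interval 0.211 to 38.5%), against 17.3%. Where an interval is given, the list share lies inside it, so a shortage or an excess of HA-YAP5SA was not detectable with these numbers.

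The YAP and TAZ antibodies gave no peak near MYC. None of the 64 TEAD1 peaks overlapped YAP, which allows a share of up to 4.69%, against 0.210% of the list. None of the 29 TEAD4 peaks did, which allows up to 10.3%, against 0.624%. Overlap with TAZ was likewise 0 of 64 and 0 of 29, against 0 and 0.0492% of the TEAD1 and TEAD4 lists. These lists were short, and 92.4% of the 2 Mb bins held no YAP peak and 97.0% held no TAZ peak. The nearest YAP peak on chromosome 8 lay 5797 kb downstream of MYC (134545278 to 134545499, score 105), and on the upstream side the nearest lay 41926 kb away (86821864 to 86822570, score 94.4). The nearest TAZ peak lay 41908 kb upstream (86840036 to 86840549, score 120). In the whole lists, 92 of 454 YAP peaks (20.3%) and 0 of 153 TAZ peaks overlapped TEAD1, against 95.2% of HA-YAP5SA peaks. These lists thus held few peaks, most of them away from TEAD1. The absence of a YAP or TAZ peak near MYC therefore does not show that the proteins were absent there.

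The limit of 1 Mb cut through no run of TEAD1 peaks. The outermost TEAD1 peak inside it upstream lay 981 kb from MYC with a score of 86.2, and the first outside lay 1107 kb away with a score of 226. Downstream, the outermost inside lay 930 kb away with a score of 348, and the first outside lay 1165 kb away with a score of 133. For TEAD4 the outermost inside lay 908 kb upstream (score 87.9) and 585 kb downstream (score 275), and the first outside lay 1156 kb upstream (score 153) and 1724 kb downstream (score 107). The nearest HA-YAP5SA peaks outside lay 1972 kb downstream (score 165) and 2099 kb upstream (score 103).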

How the data were processed

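ChIP-seq peak lists were analysed for 5 of the 8 HuCCT1 libraries, with groups taken from the titles and 1 library in each. Reads were aligned with Bowtie2 to hg19, per the submitters' processing notes. The peak names begin with MACS. No source used here gives the version of the caller, its threshold or the control library. The deposited score of each peak is the authors' value, on a scale that is not stated. A score near the start of a list reflects the threshold, so weaker sites can be missing from the shorter lists. The authors' lists give no read depth.

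Starts in lists with a header were taken as counted from 1. Starts in lists without one were raised by 1, which leaves an uncertainty of 1 bp. Overlap meant at least 1 shared bp, and runs used centres within 10 kb. Bins of 2 Mb ran from the first to the last TEAD1 peak of chromosomes 1 to 22 and X. Where no peak was found, up to 3 were allowed for. No test was run. The peaks named are all promoter peaks, the nearest of each list on each side, all HA-YAP5SA, YAP and TAZ peaks, the 10 highest TEAD1 and TEAD4 peaks, TEAD4 peaks without TEAD1, and those beside the 1 Mb limit. Runs, the peak 172 kb downstream and other single peaks were named after their values were seen. The locus and these measures were chosen with earlier results of these data known. The counting functions were tested on simulated data with planted overlaps. Tables were handled with pandas 2.3.3 and NumPy 2.4.6 in Python 3.11.15, intervals came from SciPy 1.17.1 and plots from matplotlib 3.10.9. Sequence of this locus is not reported here.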

Additional observations from a re-analysis of the deposited data

How the results depend on the processing

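Of 56 recomputed values, 52 stayed within tolerance and 4 did not. A count could change by 1.5 times, a share within its interval and a median score within the quartiles of the locus. Part of the 52 could not have moved, because a YAP or TAZ count of 0 cannot rise in a narrower window or a shortened list. Within 500 kb of MYC there were 40 TEAD1 peaks, 20 TEAD4 peaks and 0 HA-YAP5SA peaks, since fewer peaks lie in a smaller window. Keeping the upper-scoring part of each list, from its median upward, left 42 TEAD1 and 15 TEAD4 peaks. The promoter held the same single TEAD4 peak whether a peak had to cover the start site or have its centre within 5 kb of it. TEAD1 peaks overlapped TEAD4 at 33.3 to 42.5% under other settings, against 30.5 to 31.2% of the list. These settings were overlap of 50% of the shorter peak, centres within 500 bp, upper scores only, and a window of 500 kb. With upper scores only in both lists, the share near MYC was 33.3%, against 31.2% of the list. Within 500 kb the median TEAD1 score was 202, against 288 within 1 Mb and 177 in the whole list. That drop counted as within tolerance only because the quartiles of the locus, 115 and 539, are wide and also contain the list's median. Without the promoter peak, a setting added after the data were examined, the median TEAD4 score was 173, against 186 with it. Having another TEAD1 centre within 5 kb or 25 kb applied to 31 and 52 TEAD1 peaks, 48.4% and 81.3% of the locus, against 30.8% and 69.0% of the list. No paired analysis was possible because each group has 1 library. Limits are the single library per antibody, the unknown depth, a score of unstated scale, and the short YAP and TAZ lists, in which a missing peak cannot be told apart from weak enrichment.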
